A study of Homo sapiens with 6 samples.

Results

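The insulin-like growth factor (IGF) system was followed through 10 genes, namely the binding proteins IGFBP1 to IGFBP7, the ligands IGF1 and IGF2, and the receptor IGF1R. Members were the probe sets whose platform gene symbol is 1 of these alone, which gave 26 of 54613 probe sets and covered 9 of the 10 genes. IGF2 was read only by 3 further probe sets that also name INS-IGF2, a read-through of the insulin and IGF2 genes, and these joint probe sets were kept out of all counts. RNA came from 3 states of IMR90 cells, a human lung fibroblast line, with 2 biological replicates per state, each hybridized to an Affymetrix U133 Plus 2.0 array. All cells carried ER:Ras, an oncogenic H-Ras fused to the estrogen receptor that 4-hydroxytamoxifen (4-OHT) switches on. Growing cells received neither 4-OHT nor siRNA. Cells in oncogene-induced senescence (OIS) were kept in 100 nM 4-OHT for 6 days and were transfected 4 days before RNA was taken, either with a control siRNA against luciferase (Ctrl-KD OIS) or with a mixture of RB1 siRNAs (RB-KD OIS). The effects of 4-OHT, Ras activity and transfection therefore cannot be told apart in a comparison with growing cells, whereas the OIS states differ by the siRNA.

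IGF1 and IGF2 are secreted ligands that drive growth and survival through IGF1R, a receptor tyrosine kinase. Secreted binding proteins hold most of the ligand outside the cell, where they prolong its life, keep it from the receptor, or release it when proteases cut them. Fibroblasts make many of these proteins, and IGFBP3, IGFBP5 and IGFBP7 are among the secreted factors studied in senescent cells.

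The promoters of IGFBP3, IGFBP4, IGFBP5 and IGFBP6 are shown because these binding proteins fell together on entry into Ctrl-KD OIS, as described below. Each line holds the 250 bases before the start annotated in RefSeq (GRCh38.p14), written 5′ to 3′ along the gene. The windows are chr7:45921273-45921522 on the minus strand for IGFBP3, chr17:40443200-40443449 on the plus strand for IGFBP4, chr2:216695550-216695799 on the minus strand for IGFBP5 and chr12:53097417-53097666 on the plus strand for IGFBP6. Capitals mark a motif that was found.
IGFBP3: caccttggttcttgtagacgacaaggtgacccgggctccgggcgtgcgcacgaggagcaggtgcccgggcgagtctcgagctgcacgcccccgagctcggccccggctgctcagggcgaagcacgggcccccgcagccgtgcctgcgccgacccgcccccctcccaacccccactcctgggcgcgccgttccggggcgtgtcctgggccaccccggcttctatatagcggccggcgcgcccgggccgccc
IGFBP4: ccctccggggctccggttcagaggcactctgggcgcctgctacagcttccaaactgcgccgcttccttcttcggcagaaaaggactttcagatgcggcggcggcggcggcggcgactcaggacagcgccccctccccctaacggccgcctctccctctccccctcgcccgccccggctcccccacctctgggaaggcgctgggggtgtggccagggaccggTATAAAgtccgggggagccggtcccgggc
IGFBP5: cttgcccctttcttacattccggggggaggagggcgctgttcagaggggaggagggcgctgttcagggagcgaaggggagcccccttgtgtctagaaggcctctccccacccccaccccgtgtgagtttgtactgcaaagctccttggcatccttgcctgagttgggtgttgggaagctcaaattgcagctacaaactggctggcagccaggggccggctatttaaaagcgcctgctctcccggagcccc
IGFBP6: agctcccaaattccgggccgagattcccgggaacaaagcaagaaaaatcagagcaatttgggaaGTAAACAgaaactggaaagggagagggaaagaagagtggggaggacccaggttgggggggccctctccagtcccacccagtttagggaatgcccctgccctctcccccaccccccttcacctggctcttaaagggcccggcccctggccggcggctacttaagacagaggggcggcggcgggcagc
Motifs were searched on both strands of 35116 RefSeq promoters of the same length, of which 7 belong to members. The TATA box letters TATAAA, present in 10.7% of all promoters, were found in IGFBP4 alone, at position -29 from the start. The forkhead letters GTAAACA, present in 2.98%, were found in IGFBP6 at position -186 and in IGF1 at position -247. No member promoter held the AP-1 letters TGACTCA, the E2F letters TTTCCCGC or TTTGGCGC, or CCAAT in this window, against 4.20%, 1.93% and 32.0% of all promoters. GC content was 76.0% for IGFBP3, 71.6% for IGFBP4, and 61.2% for both IGFBP5 and IGFBP6, against a median of 58.0%. IGF1R had 81.2%, IGFBP2 56.8% and IGF1 39.6%. IGFBP1, IGFBP7 and IGF2 had no entry. IGFBP1 and IGFBP3 are next to each other among protein-coding genes, as are IGFBP2 and IGFBP5.

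Values below are MAS5 signals, a linear brightness that the authors scaled to a common level on every array (median signal 46 to 51.8). The difference of 2 states is a log2 fold change from limma, fitted on the 30139 probe sets above their array's median on at least 2 of the 6 arrays, and a probe set was called at an adjusted p under 0.05. Of the 26 member probe sets 18 passed this filter, and they covered 8 genes, since the probe set of IGFBP2 did not pass. With 2 arrays per state an exact permutation test of a single value cannot give a p under 0.333. RB1 was depleted as labelled, with signals of 2627.2 and 2528.4 in growing cells, 2578.2 and 1914.5 in Ctrl-KD OIS cells, and 221.7 and 228.5 in RB-KD OIS cells. A second RB1 probe set was above the array median on 1 array. All 11 fibroblast markers were above the array median on every array. No epithelial, hepatocyte or leukocyte marker was above it on every array, whereas 2 of 5 endothelial markers, PECAM1 and TEK, were. Some of the other markers were above it on fewer arrays. The epithelial marker EPCAM and the hepatocyte marker TTR reached 5 of 6 arrays, and the leukocyte marker CD3E reached 4.

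Ctrl-KD OIS cells had less RNA of most tested binding protein genes than growing cells had, and of the members only IGFBP1 was called higher. Of the 18 tested member probe sets, 12 were lower (18.3% of all tested probe sets were lower), 1 was higher (15.8%) and 5 were not called. IGFBP5 had 6 of the 18 and IGF1R 4, and probe sets of 1 gene are not separate readings. The shares include dim probe sets. With the filter raised to percentile 70 of each array, 11 of 14 member probe sets and 4931 of all 17833 were lower. The median log2 fold change was -0.99 for the member probe sets and -0.05 for all tested probe sets. Read from the brightest probe set of each gene, 6 of 8 genes were lower and 1 was higher. The share over all genes read in this way was not computed. The 1 higher probe set passed the filter through OIS arrays alone, and it was not called when any growing or Ctrl-KD OIS array was left out. In RB-KD OIS against growing cells 10 member probe sets were lower (16.5%), 1 was higher (14.0%) and 7 were not called, with a median of -0.82 against -0.07 for all. The comparisons with growing cells share the growing arrays. As these are bulk samples, fewer cells that express a gene and less RNA per cell cannot be told apart. The summed signal of the 11 fibroblast markers was 213471 to 214664 in growing, 131065 to 131938 in Ctrl-KD OIS and 147910 to 177465 in RB-KD OIS cells, and its part in these results was not tested. Not all markers moved alike, since FAP was called higher in both OIS states (log2 fold changes 0.34 and 0.51) and neither COL1A1 nor VIM was called in any comparison.

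Between the OIS states, IGFBP1, IGFBP4, 3 probe sets of IGFBP5 and 1 of IGF1R were higher after RB knockdown, and IGFBP3 and another probe set of IGFBP5 were lower. These were 6 higher (8.96% of all tested probe sets) and 2 lower (7.93%) of 18 member probe sets, with a median log2 fold change of 0.43 against -0.02 for all. The counts rested on single arrays and on the variance model. Without RB-KD OIS replicate 1 limma called 0 as higher, with 8 at an unadjusted p under 0.05. Without a trend in the prior variance it called 0 higher and 0 lower, with 6 and 3 at an unadjusted p under 0.05. The 2 lower calls became 0 without Ctrl-KD OIS replicate 1 and 1 without any other array. Fitted over genes with the brightest probe set of each, limma called 4 of 8 member genes higher and 1 lower. With all probe sets of a gene averaged, which includes probe sets near background, limma called 0 of 8 member genes higher and 0 lower, with 2 and 1 at an unadjusted p under 0.05. Shares over all genes were not computed for these fits over genes.

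**Figure D1:**
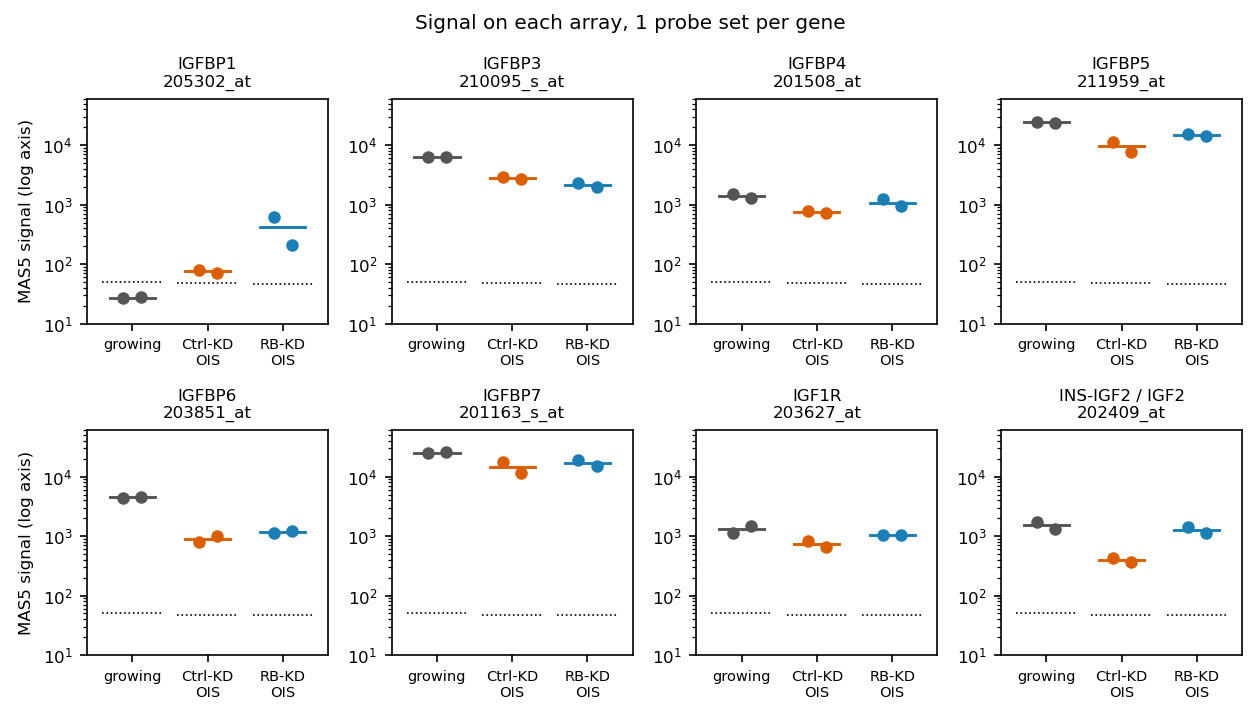
MAS5 signal (log axis) on each of the 6 arrays for the brightest probe set of 7 member genes and the brightest joint INS-IGF2 and IGF2 probe set. Points are arrays, solid lines are the means of 2 arrays, and dotted lines are the mean of the array medians of a state. IGFBP1 rises from below the dotted line in growing cells, the OIS arrays of the other 6 member genes lie below their growing arrays, and the joint probe set is lower in Ctrl-KD OIS cells than in both other states.

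IGFBP1, a binding protein best known as a liver product that insulin suppresses, was the only member with a probe set called higher in OIS than in the growing state. Probe set 205302_at read 27.1 and 27.6 in growing cells, 80.5 and 69.6 in Ctrl-KD OIS cells, and 614.2 and 210.6 in RB-KD OIS cells. The states did not overlap, and the RB-KD OIS replicates differed more from each other than those of either other state. This probe set passed the filter through the 4 OIS arrays alone, so its comparisons with growing cells are not independent of that filter. Growing cells were under the array median on both arrays, so that the signal was at least 7.10-fold higher in RB-KD OIS cells (log2 fold change 3.72, SE 0.48, adjusted p = 0.000341) and at least 1.48-fold higher in Ctrl-KD OIS cells (1.45, SE 0.48, adjusted p = 0.0414). The first of these bounds was at least 4.16-fold without RB-KD OIS replicate 1 and at least 12.1-fold without replicate 2 (log2 fold changes 2.95 and 4.49, both called). RB-KD exceeded Ctrl-KD OIS cells by a log2 fold change of 2.26 (SE 0.48, adjusted p = 0.0114). This became 1.49 without RB-KD OIS replicate 1 and 2.16 without Ctrl-KD OIS replicate 2, and neither passed. The rise from growing to Ctrl-KD OIS cells was not called when any array of those states was left out (1.35 to 1.56). The second probe set of IGFBP1, 237989_at, was under the array median on all 6 arrays, with signals of 0.7 to 22.7. The mean of both probe sets was not called in RB-KD OIS against growing cells (1.73, adjusted p = 0.237) or between the OIS states (2.17, adjusted p = 0.196).

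The genes whose 6 arrays lay nearest to IGFBP1, each taken as log2 signal minus the mean of the growing arrays, were BIK, OASL and RIPOR3-AS1, with Euclidean distances of 1.32, 1.35 and 1.36. BIK, which encodes a protein that promotes apoptosis, read 33.6 and 37.8 in growing, 144.1 and 151.8 in Ctrl-KD OIS, and 477.5 and 428.4 in RB-KD OIS cells. OASL, an interferon-induced gene, read 49.5 and 27.3, then 176.2 and 112.0, then 645.3 and 511.9 in the same order. RIPOR3-AS1, an antisense RNA, read 494.6 and 409.1, then 1284.6 and 639.8, then 4904.0 and 3412.5. They were picked by this distance, so a likeness to IGFBP1 in the order of states follows from the choice and is no separate result. Each was lowest in growing and highest in RB-KD OIS cells, and the states did not overlap.

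IGFBP2 was near or below the array median in these cells. Its probe set 202718_at read 57.0 and 11.4 in growing cells, 8.4 and 11.9 in Ctrl-KD OIS cells, and 34.2 and 9.7 in RB-KD OIS cells. It was above the array median on 1 array and was not tested.

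IGFBP3, the main carrier of IGFs in the blood, was lower in both OIS states. Probe set 210095_s_at read 6279.4 and 6287.1 in growing cells, 2969.4 and 2692.2 in Ctrl-KD OIS cells, and 2267.7 and 1951.7 in RB-KD OIS cells. The growing arrays were highest and the RB-KD OIS arrays lowest, with no overlap. The log2 fold change against growing cells was -1.15 (SE 0.10, adjusted p = 2.61e-05) in Ctrl-KD and -1.58 (SE 0.10, adjusted p = 5.045e-06) in RB-KD OIS cells. Between the OIS states it was -0.43 (SE 0.10, adjusted p = 0.0210), called in 9 of 16 alternatives and not without either growing array, Ctrl-KD OIS replicate 1 or RB-KD OIS replicate 2 (-0.43 to -0.32). IGFBP3 was the 1 gene of the family that read lower after RB knockdown in every tested probe set. Probe set 212143_s_at read 1098.2 and 1157.0 in growing, 718.9 and 583.9 in Ctrl-KD OIS, and 539.3 and 450.3 in RB-KD OIS cells. Its log2 fold changes were -0.80 (adjusted p = 0.00265), -1.19 (adjusted p = 0.000302) and, between the OIS states, -0.39 (adjusted p = 0.109), which was not called.

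IGFBP4, a binding protein that holds back IGF action until it is cleaved, was lower in Ctrl-KD OIS cells and lay between the other states after RB knockdown. Probe set 201508_at read 1512.3 and 1270.6 in growing cells, 791.2 and 722.1 in Ctrl-KD OIS cells, and 1222.4 and 948.0 in RB-KD OIS cells. No states overlapped. The log2 fold change was -0.87 (SE 0.15, adjusted p = 0.00158) for Ctrl-KD OIS and -0.36 (SE 0.15, adjusted p = 0.1003) for RB-KD OIS against growing cells. RB-KD exceeded Ctrl-KD OIS cells by 0.51 (SE 0.15, adjusted p = 0.0470), and this was called in 6 of 16 alternatives. When each array was left out it was 0.33 to 0.69 and was called in 1 of 6 fits.

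IGFBP5, which binds IGFs and extracellular matrix, had 6 tested probe sets that fell into different patterns. The brightest, 211959_at, read 24976.6 and 23632.4 in growing cells, 11344.6 and 7785.0 in Ctrl-KD OIS cells, and 15122.6 and 14387.1 in RB-KD OIS cells. Probe set 203424_s_at read 12352.9 and 8071.2, then 1866.8 and 1226.5, then 3129.9 and 2896.9, and 211958_at read 2048.9 and 1721.2, then 649.1 and 544.6, then 1069.7 and 958.6. In these 3 probe sets the growing arrays were highest, the Ctrl-KD OIS arrays lowest and the RB-KD OIS arrays between them, with no overlap. Their log2 fold changes in Ctrl-KD OIS against growing cells were -1.37 (SE 0.15, adjusted p = 8.09e-05) for 211959_at, -2.72 (SE 0.22, adjusted p = 1.28e-05) for 203424_s_at and -1.66 (SE 0.14, adjusted p = 1.73e-05) for 211958_at. For RB-KD OIS against growing cells the values were -0.72 (adjusted p = 0.00492), -1.73 (adjusted p = 0.000298) and -0.89 (adjusted p = 0.00112). RB-KD exceeded Ctrl-KD OIS cells by 0.65 (adjusted p = 0.0155), 0.99 (adjusted p = 0.0135) and 0.77 (adjusted p = 0.00546).

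The other 3 probe sets of IGFBP5 had no called fall in Ctrl-KD OIS cells. In 203426_s_at and 203425_s_at both Ctrl-KD OIS arrays still lay below the growing arrays. Probe set 1555997_s_at read 829.8 and 649.2 in growing cells, 827.5 and 859.0 in Ctrl-KD OIS cells, and 502.5 and 615.6 in RB-KD OIS cells. Probe set 203426_s_at read 540.1 and 483.0, then 438.5 and 469.0, then 316.3 and 426.6, and 203425_s_at read 295.3 and 297.9, then 231.2 and 255.3, then 141.5 and 184.2. In all 3 the RB-KD OIS arrays were lowest. The log2 fold change in Ctrl-KD OIS against growing cells was 0.20 (adjusted p = 0.379), -0.17 (adjusted p = 0.501) and -0.29 (adjusted p = 0.323), and none was called. Between the OIS states they were -0.60 (adjusted p = 0.0313), -0.30 (adjusted p = 0.294) and -0.59 (adjusted p = 0.0826), so that 1555997_s_at was called lower where the 3 brighter probe sets were called higher. In RB-KD OIS against growing cells 203425_s_at was lower (-0.88, adjusted p = 0.0100), and the other 2 were not called (-0.40 and -0.48). That call was lost without either growing array (-0.88 and -0.87) or RB-KD OIS replicate 1 (-0.69). The calls between the OIS states were lost without RB-KD OIS replicate 1 for 211959_at (0.61), 203424_s_at (0.94), 211958_at (0.69) and 1555997_s_at (-0.45), without RB-KD OIS replicate 2 for 211959_at (0.69) and 203424_s_at (1.05), and without Ctrl-KD OIS replicate 2 for 203424_s_at (0.69) and 1555997_s_at (-0.57). The last was also lost without Ctrl-KD OIS replicate 1 (-0.63). The mean of all 6 probe sets gave 0.15 between the OIS states, which was not called. The difference between the probe sets was itself not tested.

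**Figure D2:**
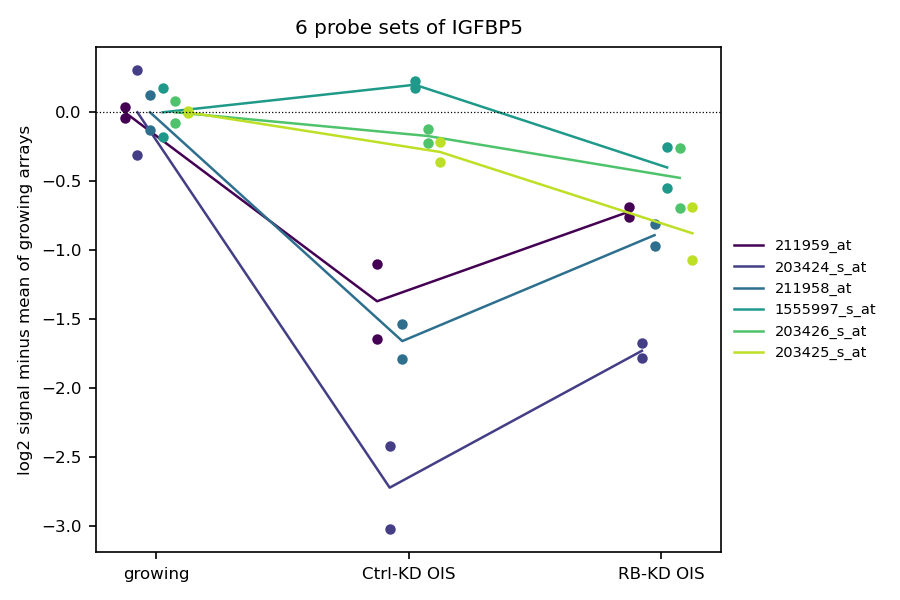
Log2 signal of 6 IGFBP5 probe sets minus the mean of the growing arrays of the same probe set, by state. Points are arrays and lines join the state means. In Ctrl-KD OIS cells 3 probe sets fall by 1.37 to 2.72 and the other 3 lie between -0.29 and 0.20.

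IGFBP6, which prefers IGF2 over IGF1, showed the lowest adjusted p of the members for the change from growing to Ctrl-KD OIS cells. Its probe set 203851_at read 4362.6 and 4578.5 in growing cells, 805.1 and 1004.9 in Ctrl-KD OIS cells, and 1122.6 and 1206.7 in RB-KD OIS cells. Every OIS array was far below the growing arrays. The signal was 4.97-fold lower in Ctrl-KD OIS cells (log2 fold change -2.31, SE 0.12, adjusted p = 1.045e-06) and 3.84-fold lower in RB-KD OIS cells (-1.94, SE 0.12, adjusted p = 4.3e-06), and both calls held in all 16 alternatives. The difference between the OIS states was 0.37 (SE 0.12, adjusted p = 0.0715), which passed in 3 of 16 alternatives.

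IGFBP7, which binds IGFs only weakly and has been described as a secreted factor in oncogene-induced senescence, was lower in both OIS states. Probe set 201163_s_at read 25137.0 and 25557.6 in growing cells, 17446.5 and 11517.8 in Ctrl-KD OIS cells, and 19043.9 and 14858.3 in RB-KD OIS cells. Probe set 201162_at read 32352.0 and 32793.2, then 10262.1 and 8929.9, then 16998.8 and 10722.7. The growing arrays were highest in both probe sets, while the OIS states overlapped in the first. In Ctrl-KD OIS against growing cells the log2 fold change was -0.84 (SE 0.18, adjusted p = 0.00489) for 201163_s_at and -1.77 (SE 0.18, adjusted p = 5.1e-05) for 201162_at. In RB-KD OIS against growing cells it was -0.59 (SE 0.18, adjusted p = 0.0304) and -1.27 (SE 0.18, adjusted p = 0.000531). The former was called in 10 of 16 alternatives and not without either growing array or without RB-KD OIS replicate 2 (-0.60, -0.58 and -0.41), nor in the mean of the IGFBP7 probe sets (-0.87, adjusted p = 0.0700). Between the OIS states neither was called, at 0.25 (adjusted p = 0.402) and 0.50 (adjusted p = 0.0871). Its last probe set, 213910_at, read 14.3 to 68.7 and was not tested.

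IGF1 was near the array median or below it. Its brightest probe set, 209542_x_at, read 56.1 and 91.1 in growing cells, 10.4 and 106.3 in Ctrl-KD OIS cells, and 59.1 and 23.8 in RB-KD OIS cells. The states overlapped, and no difference was called (log2 fold changes -1.10, -0.93 and 0.17, SE 1.01, adjusted p = 0.444, 0.532 and 0.935), which at this spread leaves changes of several fold undetected. The other 4 probe sets, with signals from 0.9 to 66.6, were not tested.

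IGF2, the other ligand, could be read only together with INS-IGF2. These joint probe sets fall outside the rule for naming genes and were described after their values were seen. Probe set 202409_at read 1750.0 and 1322.5 in growing cells, 434.9 and 368.2 in Ctrl-KD OIS cells, and 1425.0 and 1132.1 in RB-KD OIS cells. The Ctrl-KD OIS arrays stood apart, and the growing and RB-KD OIS arrays overlapped. The Ctrl-KD OIS signal was 3.80-fold under that of growing cells (log2 fold change -1.93, SE 0.17, adjusted p = 2.63e-05) and it was 3.17-fold higher after RB knockdown (1.67, SE 0.17, adjusted p = 0.000308). The latter was called in all 14 alternatives. RB-KD OIS cells did not pass against growing cells (-0.26, adjusted p = 0.295). Probe set 202410_x_at read 178.1 and 174.7, then 90.6 and 84.5, then 252.0 and 177.3, with log2 fold changes of -1.01 (adjusted p = 0.0133), 0.26 (adjusted p = 0.492) and, between the OIS states, 1.27 (adjusted p = 0.00940). It missed the threshold between the OIS states without RB-KD OIS replicate 1 (1.02), and against growing cells without either growing array. Probe set 210881_s_at read 116.3 and 93.9, then 31.9 and 4.5, then 44.3 and 47.0, with a Ctrl-KD OIS level at least 2.20-fold under growing cells (adjusted p = 0.0237), a call lost without either growing array. It passed the filter only with the growing arrays counted, so its comparisons with growing cells are not independent of that filter.

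IGF1R, the receptor, fell from growing to Ctrl-KD OIS cells in 3 of 4 tested probe sets. Probe set 225330_at read 1243.9 and 1161.0 in growing cells, 485.9 and 530.5 in Ctrl-KD OIS cells, and 826.9 and 766.5 in RB-KD OIS cells. Probe set 203627_at read 1114.3 and 1470.5, then 813.2 and 656.4, then 1047.0 and 1048.7. In both the RB-KD OIS arrays lay between the other states with no overlap. For 225330_at the log2 fold change was -1.24 (SE 0.12, adjusted p = 4.97e-05) in Ctrl-KD OIS and -0.59 (SE 0.12, adjusted p = 0.00540) in RB-KD OIS against growing cells, and 0.65 (SE 0.12, adjusted p = 0.00681) between the OIS states. The second was lost without growing replicate 1 (-0.54) and the third without RB-KD OIS replicate 1 (0.59). For 203627_at it was -0.81 (SE 0.16, adjusted p = 0.00335), -0.29 (adjusted p = 0.208) and 0.52 (adjusted p = 0.0524). Probe set 203628_at read 269.3 and 148.4, then 26.0 and 3.6, then 55.6 and 62.8, with a Ctrl-KD OIS level at least 4.21-fold under growing cells (adjusted p = 0.00330). Its RB-KD OIS level was at least 1.24-fold above Ctrl-KD OIS cells, with no call (log2 fold change 2.61, adjusted p = 0.0673). Probe set 208441_at read 34.5 to 63.9 and had no call, and 243358_at read 5.5 to 24.0 and was not tested.

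**Figure D3:**
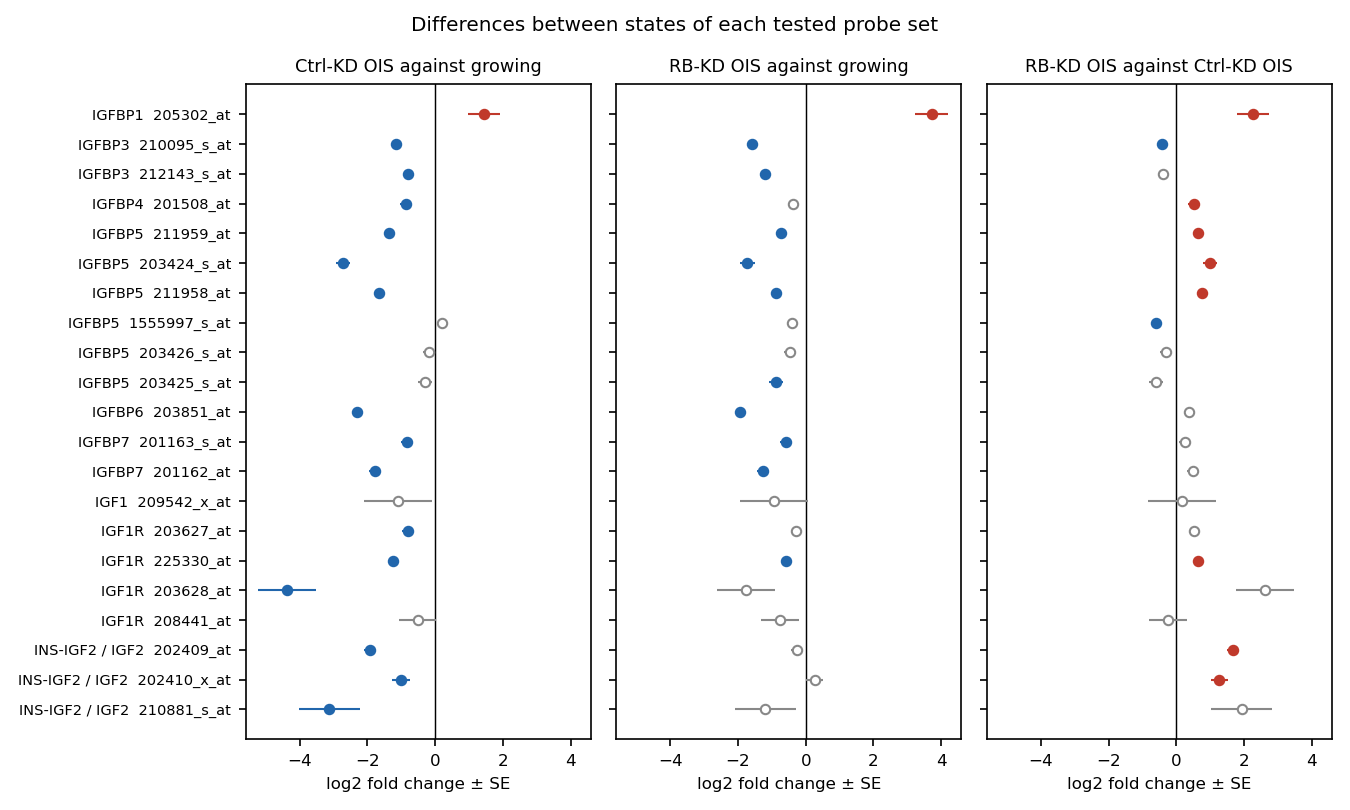
Log2 fold change with its standard error of each tested member probe set and joint INS-IGF2 and IGF2 probe set in the 3 comparisons. Filled points passed an adjusted p under 0.05 (red higher, blue lower) and open points did not. Most points lie left of 0 against growing cells, whereas between the OIS states IGFBP1 is 2.26 higher and the IGFBP5 probe sets lie on both sides of 0.

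Other genes of the IGF axis were read from a list of 56, written from background knowledge, of which 5 had no probe set naming them alone and 43 were tested. Each was read from its brightest probe set. The shares given are those of all tested probe sets, dim ones included, so they are not shares over genes read in the same way. In Ctrl-KD OIS against growing cells 14 were higher (15.8%) and 13 lower (18.3%), with a median log2 fold change of -0.01. In RB-KD OIS against growing cells 15 were higher (14.0%) and 10 lower (16.5%), with a median of -0.11. RB knockdown within OIS gave 8 higher (8.96%) and 5 lower (7.93%), with a median of -0.04. The 25 calls of RB-KD OIS against growing cells became 12 without growing replicate 1, and the 13 between the OIS states became 8 without RB-KD OIS replicate 1. With all probe sets of a gene averaged, the counts were 7 higher and 11 lower, 6 and 9, and 4 and 1 in the same order of comparisons. Without the trend in the prior variance the calls between the OIS states were lost for PAPPA, STC2, IRS1, IRS2, SOCS2, SOCS3 and CCN4. The list held calls in both directions, where the member probe sets were mostly lower against growing cells.

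Among the proteases that cut binding proteins and the inhibitors of those proteases, 4 of 8 tested genes rose and 2 fell in Ctrl-KD OIS (15.8% and 18.3% of all tested probe sets), and 5 rose in RB-KD OIS (14.0%), each against growing cells. PAPPA, a metalloprotease that cleaves IGFBP4 and IGFBP5, read 2940.6 and 3472.1 in growing cells, 15072.6 and 12412.5 in Ctrl-KD OIS cells, and 23719.9 and 20690.3 in RB-KD OIS cells. Ctrl-KD OIS cells had a 4.28-fold higher level (log2 fold change 2.10, SE 0.12, adjusted p = 1.72e-06) and RB-KD OIS cells a 6.93-fold higher level (2.79, SE 0.12, adjusted p = 4.205e-07). The difference between the OIS states, 0.70 (SE 0.12, adjusted p = 0.00452), was lost without RB-KD OIS replicate 1 (0.60) and in the mean of all PAPPA probe sets (0.33), which was called against growing cells at 1.52 and 1.84. STC1, a secreted stanniocalcin that inhibits PAPPA, read 6928.2 and 5565.3, then 41312.9 and 45707.6, then 52386.0 and 46147.8. Against growing cells its log2 fold change was 2.81 (adjusted p = 2.26e-07) for Ctrl-KD and 2.99 (adjusted p = 1.82e-07) for RB-KD OIS cells, with no call between the OIS states (0.18, adjusted p = 0.348).

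STC2, a related inhibitor, followed another pattern, with 4527.9 and 4846.3 in growing, 3706.9 and 3808.9 in Ctrl-KD OIS, and 7267.0 and 5891.9 in RB-KD OIS cells. It was called in all 3 comparisons, with log2 fold changes of -0.32 (adjusted p = 0.0482), 0.48 (adjusted p = 0.00832) and 0.80 (adjusted p = 0.00128). The first missed the threshold when any array of its states was left out (-0.37 to -0.27), and the second without growing replicate 1 (0.43) or RB-KD OIS replicate 1 (0.33). In the mean of the STC2 probe sets the first was -0.98 and called, and the second was 0.21 and not called. ADAM12, a protease of IGFBP3 and IGFBP5, read 176.1 and 184.2, then 1163.6 and 1016.6, then 840.7 and 823.9. Its log2 fold changes were 2.59 (adjusted p = 9.57e-07), 2.21 (adjusted p = 3.6e-06) and -0.39 (adjusted p = 0.0876), and the mean of its probe sets gave 1.15 and 1.11 against growing cells, both called.

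INSR, the insulin receptor, had the largest called change of the listed genes between the OIS states. It read 230.9 and 289.4 in growing cells, 140.0 and 108.7 in Ctrl-KD OIS cells, and 424.2 and 487.6 in RB-KD OIS cells. The Ctrl-KD OIS arrays were lowest and the RB-KD OIS arrays highest, a 3.69-fold difference (log2 fold change 1.88, SE 0.21, adjusted p = 0.000508) that was called in all 16 alternatives. Against growing cells it was -1.07 (adjusted p = 0.00385) and 0.82 (adjusted p = 0.0176), the latter not called without growing replicate 1 (0.65) or RB-KD OIS replicate 2 (0.71). Neither was called in the mean of the INSR probe sets (-0.71 and 0.85). Of the cell type markers, the fibroblast markers LUM, COL3A1 and THY1 and the endothelial marker TEK were called higher after RB knockdown. Like INSR and the joint IGF2 probe set 202409_at, they were lowest in Ctrl-KD OIS cells. LUM, a matrix proteoglycan, read 9799.7 and 10340.3 in growing, 3256.4 and 2508.0 in Ctrl-KD OIS, and 10657.4 and 7560.6 in RB-KD OIS cells (1.65 between the OIS states, adjusted p = 0.00025). COL3A1, a fibrillar collagen, read 26259.1 and 27508.5, then 8873.4 and 7594.0, then 25317.2 and 16389.4 (1.31, adjusted p = 0.00104). THY1 read 4356.9 and 4498.1, then 877.1 and 989.6, then 1220.6 and 1556.8 (0.57, adjusted p = 0.01735). TEK, a receptor tyrosine kinase, read 1250.3 and 1127.4, then 376.7 and 301.7, then 1378.5 and 1211.3 (1.94, adjusted p = 5.17e-05). The other fibroblast markers had no call between the OIS states, and of them PDGFRA (-0.30) and DCN (-0.14) read lower after RB knockdown. Of the other 4 endothelial markers, PECAM1 and VWF had no call, and CDH5 and KDR were under the array median on all 6 arrays. The part of these markers in the INSR and IGF2 results was not tested. IGF2R, which clears IGF2 without signalling, read 6319.1 and 5960.3, then 10032.9 and 10962.0, then 10428.9 and 9660.8. It was higher in both OIS states (0.77 and 0.71, adjusted p = 0.000108 and 0.00025), but not in the mean of its probe sets (0.39 and 0.22). GHR, the growth hormone receptor, read 60.1 and 68.4, then 53.7 and 62.4, then 3.4 and 22.0, with an RB-KD OIS level at least 1.37-fold under growing cells (adjusted p = 0.0475), and was called in 5 of 15 alternatives.

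Among 21 tested adaptors and kinases, 7 were higher (15.8% of all tested probe sets) and 5 lower (18.3%) in Ctrl-KD OIS against growing cells. In RB-KD OIS against growing cells 5 were higher (14.0%) and 4 lower (16.5%), and after RB knockdown within OIS 3 were higher (8.96%) and 5 lower (7.93%). IRS1, which couples IGF1R to PI3-kinase, fell by 0.70 (adjusted p = 0.000149) in Ctrl-KD and by 1.09 (adjusted p = 1.315e-05) in RB-KD OIS cells on the log2 scale. Its signals were 5784.5 and 5888.1 in growing, 3579.5 and 3601.4 in Ctrl-KD OIS, and 2725.1 and 2742.3 in RB-KD OIS cells, and the difference between the OIS states (-0.39, adjusted p = 0.0110) was lost without RB-KD OIS replicate 1 (-0.39) and in the mean of its probe sets (-0.30). The related adaptor IRS2 read 2193.0 and 2275.1, then 1583.5 and 1537.1, then 2074.9 and 1924.7. It was lower in Ctrl-KD OIS than in the growing state (-0.52, adjusted p = 0.00258), while its difference of 0.36 between the OIS states (adjusted p = 0.0340) was called in none of the fits that left out an array (0.30 to 0.41). Of the feedback inhibitors, against growing cells SOCS3 rose in Ctrl-KD OIS (2.53, adjusted p = 3.02e-06) and was lower after RB knockdown (-0.94, adjusted p = 0.00402), whereas SOCS2 fell (-1.36, adjusted p = 6.64e-05) and was higher after RB knockdown (0.78, adjusted p = 0.00523). With all probe sets of the gene averaged, SOCS3 had no call (1.51, adjusted p = 0.0880, and -0.42, adjusted p = 0.693), and SOCS2 kept the first call (-1.35) but not the second (0.73, adjusted p = 0.0662). GRB10, an adaptor that restrains these receptors, read 896.7 and 926.6, then 1250.2 and 1273.1, then 721.0 and 695.7, and was lower after RB knockdown (-0.83, adjusted p = 0.00114), but not in the mean of its probe sets (-0.51, adjusted p = 0.329).

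Of 6 tested proteins that share the IGF-binding domain without being classical binding proteins, 4 were lower and 1 higher in each OIS state against growing cells (18.3% lower and 15.8% higher of all tested probe sets in Ctrl-KD OIS, 16.5% and 14.0% in RB-KD OIS). CCN4, a matricellular protein induced by Wnt signalling, read 2505.5 and 2476.8 in growing, 286.8 and 148.1 in Ctrl-KD OIS, and 597.9 and 396.4 in RB-KD OIS cells. Its log2 fold changes were -3.60 (SE 0.29, adjusted p = 1.27e-05), -2.36 (SE 0.29, adjusted p = 0.000247) and, between the OIS states, 1.24 (SE 0.29, adjusted p = 0.0174), the last not called without Ctrl-KD OIS replicate 2 (0.76) or RB-KD OIS replicate 1 (0.94). The mean of all CCN4 probe sets gave -1.67 (adjusted p = 0.0143), -0.86 (adjusted p = 0.149) and 0.81 (adjusted p = 0.224), of which the first alone was called. CCN3 read 682.2 and 464.3, then 171.6 and 100.0, then 201.2 and 253.7, and was lower in both OIS states (-2.10 and -1.32, adjusted p = 0.000409 and 0.00752), the latter not without growing replicate 1 (-1.04) or RB-KD OIS replicate 1 (-1.15). ESM1, a secreted proteoglycan, went the other way, with 70.3 and 92.8, then 975.9 and 1138.2, then 714.9 and 1049.9. Its rise was 13.0-fold in Ctrl-KD OIS cells (3.71, SE 0.22, adjusted p = 1.87e-06) and 10.7-fold in RB-KD OIS cells (3.42, SE 0.22, adjusted p = 4.21e-06), with overlapping OIS states (-0.28, adjusted p = 0.440).

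**Figure D4:**
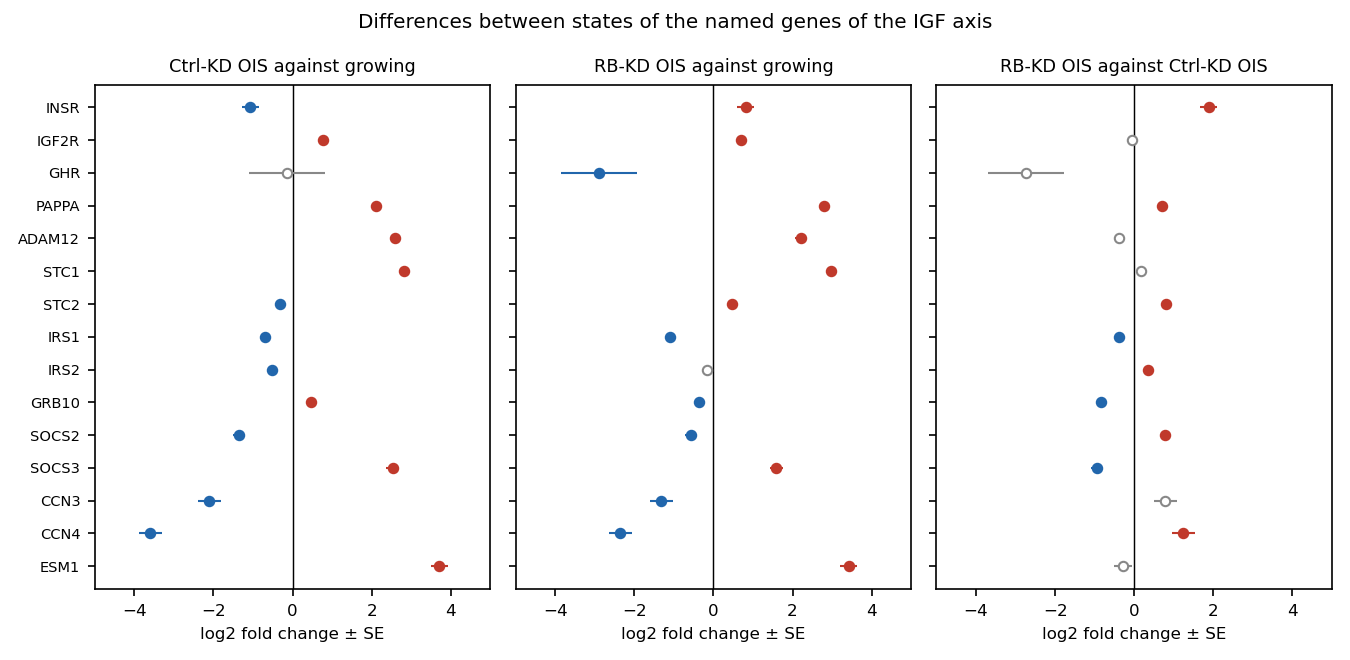
Log2 fold change with its standard error of the 15 named genes of the IGF axis in the 3 comparisons. Filled points passed an adjusted p under 0.05 (red higher, blue lower) and open points did not. PAPPA, ADAM12, STC1, SOCS3 and ESM1 are higher in both OIS states than in growing cells, and INSR is lower in Ctrl-KD and higher in RB-KD OIS cells.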

How the data were processed

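Expression was measured in 6 samples of IMR90 ER:Ras cells, 2 biological replicates from separate experiments in each of 3 states, grouped by their labels. The authors computed the deposited intensity values, MAS5 signals on a linear scale, in Affymetrix Expression Console, whose version is not given in the sources used here. The table carries no detection calls, and the number of arrays limits the precision. Of 54613 probe sets, 41091 name 1 gene, 1801 several and 11721 none in the platform table, whose annotation can be old.

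Signals were taken to log2 with an offset of 0 and no further normalization. The fit used limma 3.58.1 in R 4.3.3, with a mean per state over all 6 arrays, a trend in the prior variance, and Benjamini-Hochberg adjustment over all 30139 tested probe sets in each of 3 comparisons. A probe set under the array median on both arrays of a state was given a bound against that median. The code was tested on simulated data. The members, lists and tests were chosen with earlier results of these data known. Named were all members, RB1, 7 fixed genes of the axis list with up to 6 called genes of largest change per comparison, and the 3 genes nearest to the member probe set with the largest called change between the OIS states. An axis gene was its brightest probe set. Alternatives were other normalizations, an offset, filters, the variance model, the samples fitted, a replicate block, 1 or the mean of all probe sets per gene, and leaving out each array.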

Additional observations from a re-analysis of the deposited data

How the results depend on the processing

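Against growing cells, the 12 member probe sets lower in Ctrl-KD OIS and the 10 lower in RB-KD OIS moved in number by less than 1.5 times (11 to 12 and 7 to 11) under the alternatives that kept probe sets apart. Counted over genes, 6 and 4 of 8 members were lower from the brightest probe set and 6 and 3 from the mean of all probe sets, where 0 were higher against growing cells, at an unadjusted p under 0.05 too. No share over all genes was computed beside any count over genes given here. The 1 higher in Ctrl-KD OIS, IGFBP1, became 0 with an offset of 12.5 before log2, no filter, a filter at percentile 70, no trend in the prior variance, or only the 2 compared states in the fit, and 0 to 1 when each array was left out. At percentile 70, which removed IGFBP1 from the test, RB-KD OIS against growing cells also had 0 higher. At an unadjusted p under 0.05 limma gave 1 in place of each 0, except 0 at percentile 70 and 0 without Ctrl-KD OIS replicate 1. Between the OIS states the 6 higher became 0 without the trend, 10 with the replicate block and 0 to 8 when each array was left out, and the 2 lower became 0 without the trend, 1 with only those states in the fit and 0 to 1 when each array was left out. In the fit over genes from the brightest probe set, 4 of 8 members were higher and 1 lower there. With probe sets averaged by gene, 0 of 8 members were higher and 0 lower there, with 2 and 1 at an unadjusted p under 0.05. Without the trend all probe sets also had fewer calls there, 782 higher and 359 lower against 2701 and 2389.

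The deviations of same-numbered arrays correlated at 0.01, -0.01 and 0.04 across probe sets, which gave no sign of pairing but cannot exclude it. The main fit did not use the replicate numbers of the labels, and the block is given only as a setting. Median centring raised the median of all probe sets by 0.11 in RB-KD OIS against growing cells and changed the split of calls there from 4218 higher and 4961 lower to 5230 and 3788. No member call changed direction under centring, but IGFBP7 201163_s_at (-0.48) was no longer called.

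Some directions reversed, all for values without a call under that setting. With the probe sets of each gene averaged, IGFBP1 was at -0.44 in Ctrl-KD OIS against growing cells, and between the OIS states IGF1 was at -0.16 and STC1 at -0.066. IGF1 209542_x_at was at -0.033 between the OIS states with the offset, and left-out arrays moved it from -1.50 to 1.85 there and from -2.78 to 0.57 in Ctrl-KD OIS against growing cells. Left-out arrays also moved IGFBP7 201163_s_at from -0.053 to 0.55 and IGF2R from -0.13 to 0.0007 between the OIS states, and RB1 from -0.43 to 0.0005 in Ctrl-KD OIS against growing cells. The cause of these changes was not tested.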
